A study of Mus musculus with 4 samples.

Results

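The doublet microtubules of motile cilia and sperm flagella carry proteins on the inside of the tubule wall. Among them are the tektins, long coiled-coil proteins that assemble into filaments, and a set of globular and linker proteins held at fixed intervals along the lumen. The genes described here are the 5 tektin genes Tekt1, Tekt2, Tekt3, Tekt4 and Tekt5, and 3 genes for other inner proteins, Efhc2, Ribc2 and Spag8. They were listed by name, with earlier results of these data known, and all 8 were found among the 22311 genes listed in testis RNA.

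RNA came from whole testes of 24-day-old male mice, 2 samples homozygous for a disrupted Rfx2 (mutant 1 and 2) and 2 controls (control 1 and 2). RFX2 is a transcription factor of the regulatory factor X family, which binds a DNA sequence called the X-box and is known for its part in ciliogenesis. In the mutants, a neomycin-resistance cassette had replaced the exons for the DNA binding domain, and the line descends from 1 targeted embryonic stem cell clone. The labels call the controls wild type and the strain of all 4 samples DBA, whereas the methods of the study describe heterozygous controls and a mixed background of 129/s6 and C57BL/6. Each sample was stated to be an independent biological sample, without a statement that each was a single animal. In whole testis, fewer cells of a type and less RNA per cell cannot be told apart.

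In the control samples the tektin genes were strongly transcribed, and their differences between the genotypes did not all have the same direction or size. Tekt4 and Spag8 fell to 1.96% and 3.79% of their control mean, and Ribc2 rose to 193%. Tekt1 was lower in both mutants without passing the test across all genes, while Tekt2, Tekt3, Tekt5 and Efhc2 did not pass it either. Tektin genes are active in male germ cells, where the axoneme, the microtubule core of the flagellum, is built in spermatids, and several also serve in the cilia of other tissues.

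Just upstream of the transcription start, Tekt4, Tekt2 and Ribc2 carry a short mirrored repeat that Spag8 lacks. Promoter sequences are shown for the genes with the largest falls, Tekt4 and Spag8, for Ribc2 and for Tekt2. Each runs 5′ to 3′ on the strand of the gene, from 250 bases before to 50 bases after the RefSeq start (GRCm38.p6), at chr17:25471340-25471639 on the plus strand for Tekt4, chr4:126325639-126325938 on the minus strand for Tekt2, chr15:85131848-85132147 on the plus strand for Ribc2 and chr4:43653545-43653844 on the minus strand for Spag8. Capitals mark GTTGC, 3 bases of any kind and GCAAC, a mirrored repeat whose arms read alike on both strands and was picked out after these promoters had been read.
Tekt4: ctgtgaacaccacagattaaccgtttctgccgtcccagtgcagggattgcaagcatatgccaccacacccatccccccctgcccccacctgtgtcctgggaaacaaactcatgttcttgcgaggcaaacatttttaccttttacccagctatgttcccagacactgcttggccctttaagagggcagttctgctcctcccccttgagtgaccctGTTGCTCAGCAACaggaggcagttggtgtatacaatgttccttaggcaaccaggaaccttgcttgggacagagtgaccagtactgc
Tekt2: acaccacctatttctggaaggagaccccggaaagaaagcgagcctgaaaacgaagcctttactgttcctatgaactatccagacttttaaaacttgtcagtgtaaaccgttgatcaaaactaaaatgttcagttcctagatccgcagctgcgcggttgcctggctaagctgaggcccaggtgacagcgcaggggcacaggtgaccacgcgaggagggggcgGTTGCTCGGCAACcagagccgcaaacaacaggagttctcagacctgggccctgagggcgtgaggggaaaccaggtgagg
Ribc2: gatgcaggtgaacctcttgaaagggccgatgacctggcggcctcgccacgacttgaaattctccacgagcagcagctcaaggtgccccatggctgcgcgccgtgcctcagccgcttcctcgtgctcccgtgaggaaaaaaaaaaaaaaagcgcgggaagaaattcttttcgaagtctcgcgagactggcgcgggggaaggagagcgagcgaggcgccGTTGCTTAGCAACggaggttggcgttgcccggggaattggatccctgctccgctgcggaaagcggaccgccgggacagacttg
Spag8: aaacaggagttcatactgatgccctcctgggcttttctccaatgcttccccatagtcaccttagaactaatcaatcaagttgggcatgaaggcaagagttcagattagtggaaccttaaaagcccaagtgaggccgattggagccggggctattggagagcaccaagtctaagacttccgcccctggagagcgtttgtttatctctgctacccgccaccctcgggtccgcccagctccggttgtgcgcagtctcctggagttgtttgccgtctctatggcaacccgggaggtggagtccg

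The mirrored repeat lay 36 to 24 bases before the start of Tekt4, 29 to 17 bases before that of Tekt2 and 33 to 21 bases before that of Ribc2. Positions are for the first start listed for each gene. At the second start the repeat lay 71 to 59 bases before it in Tekt2 and 34 to 22 in Ribc2. The window of the third start of Tekt2 held neither the repeat nor an X-box. It was present in 68 of 27025 genes with a promoter in the RefSeq table, or 0.252%. Among the genes tested below that had a promoter there, the share was 0.405%. The X-box as the study spelled it, with a gap of 0 to 3 bases and searched on both strands, overlaps this pattern. In Tekt2 it matched without a mismatch on the same 13 bases. In Tekt4 and in Ribc2 it matched there with 1 mismatch. Outside the repeat, Tekt4 had a further match with 1 mismatch at bases 1 to 14, counting the start as base 1. Tekt2 had one 96 to 84 bases before the start. The X-box without a mismatch was found in 474 of the 27025 genes (1.75%), and with at most 1 mismatch in 12.7% of the 27025. Among the tested genes with a promoter these shares were 2.44% and 15.2%.

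The promoter of Tekt1 held an X-box with 1 mismatch, 96 to 83 bases before its first listed start, and none in the window of its second. In these 300-base windows no match was found for Tekt3, Tekt5, Efhc2 or Spag8, even with 1 mismatch. The study searched a wider region conserved between mouse and human with a weight matrix for RFX2. It chose the Spag8 promoter for ChIP-PCR as one of its predicted targets, with primers designed around the predicted site. It reports that the RFX2 antibody pulled down all but 1 of the promoters examined, and its text does not name Spag8 there. The absence of these letters here thus does not mean that Spag8 has no RFX site. A window of 1000 bases on each side of the start was also searched in NCBIM37, the build that the study calls mm9. Tekt2 alone of the 8 had an X-box without a mismatch there. Such an X-box was found in 3.64% of protein-coding genes and in 4.6% of tested genes. Of the 3 genes with the mirrored repeat, Tekt4 had a much lower level in the mutants, Ribc2 a higher one, and Tekt2 did not pass the test.

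FPKM, fragment numbers scaled for transcript length and sequencing depth, were compared on the log2(FPKM + 1) scale with limma over 12985 genes, and p-values were adjusted over all of them by the Benjamini-Hochberg method. The pseudocount of 1 understates the change of a gene at a low level. Depth estimated from the deposited confidence bounds was 17.16 to 20.35 M fragments per sample. Rfx2 itself had an FPKM of 36.7 and 39.8 in mutant 1 and 2 and of 123 and 89.4 in control 1 and 2, with both mutants below both controls. Its log2 fold change was -1.43 (SE 0.19, adjusted p = 0.0062 in limma; 3.23e-05 to 0.975 over the alternatives with all 4 samples and no block), or 36.0% of the control mean, and the whole-gene FPKM does not separate the removed exons from the rest.

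Mutant 1 stood apart from the other samples in transcripts used as markers of elongating spermatids. The study reports that spermatogenesis of these mutants stopped in the round spermatid phase, without elongating spermatids in mutant testes at a later age. In the mutants the sums below are thus levels of the marker RNA and not a measure of elongating spermatids. The summed FPKM of 12 marker genes of elongating spermatids was 1737 in mutant 1, 7635 in mutant 2, 8721 in control 1 and 6003 in control 2. Mutant 1 was below both controls in 12 of these 12 genes and mutant 2 in 2, while mutant 2 was above both controls in 7. For 13 round spermatid markers the sums were 960 and 1535 in the mutants and 1585 and 1285 in the controls. Mutant 1 was below both controls in 11 of them and mutant 2 in 1, while mutant 1 was above both in 1 and mutant 2 in 7. Markers of spermatocytes, the meiotic cells that come before spermatids, summed to 1647 and 1480 in the mutants and 1464 and 1528 in the controls. No gene of these 3 lists passed the test. Markers of multiciliated epithelium, the lining of the ducts that leave the testis, gave sums of 36.0 and 54.4 in the mutants and 89.4 and 63.2 in the controls over the 4 of 7 genes found. Of these, Trp73 and Ccno were at most 1.51 FPKM in any sample, so the sums rest on Foxj1 and Ccdc67 and are no measure of the duct lining. Foxj1 had 19.6 and 27.3 FPKM in mutant 1 and 2, and 46.2 and 25.4 in control 1 and 2. The study counted Foxj1 among cilia-related genes and reported it unchanged in the mutants by real-time PCR. Ccdc67 had 15.6 and 26.4 in the mutants, and 41.9 and 36.3 in the controls.

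**Figure D1:**
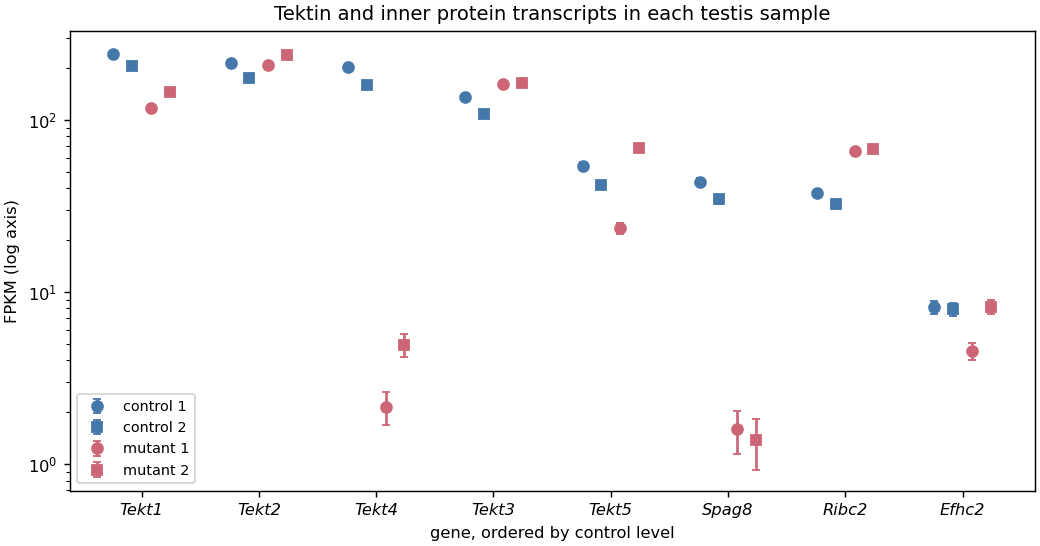
FPKM (log axis) of each of the 8 genes in the 4 testis samples, with genes ordered by control level. Blue marks controls, red marks mutants, circles sample 1 and squares sample 2, and bars are the deposited confidence bounds; the mutant points of Tekt4 and Spag8 lie at 1.38 to 4.91 FPKM, while those of Ribc2 lie above both controls.

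Of the 8 genes, 2 passed at a lower level and 1 at a higher level, beside 2.52% of the 12985 genes tested called lower and 0.308% called higher. Both mutants were below both controls in 3 of the 8 genes, against 15.2% of all genes tested, and above both in 2, against 16.3%. In 3 genes the groups overlapped. The median log2 fold change of the 8 was -0.28, against 0.03 over all genes tested. At an unadjusted p under 0.05, 3 of the 8 were lower and 2 higher, beside 6.68% and 2.01% of all genes tested. Tekt4 and Spag8 belong to the genes that the study picked for real-time PCR after its own analysis of these samples, so their direction here is not independent evidence.

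Among the tektins, Tekt4 had the largest difference. It lies in the doublet microtubules of the sperm flagellum, and mice without it have poorly motile sperm. Control 1 and control 2 had an FPKM of 201 and 158, mutant 1 an FPKM of 2.14 and mutant 2 of 4.91. The groups were far apart, with both mutants at the bottom, and the mutant mean was 1.96% of the control mean, or 51.0-fold lower. A log2 fold change of -5.38 (SE 0.29, adjusted p = 5.08e-05 in limma) ranked 8 from the largest fall among all genes tested. The confidence bounds corresponded to 86 and 168 fragments in the mutants and 7710 and 6420 in the controls. Leaving out 1 sample at a time gave log2 fold changes between -5.84 and -4.93, the value nearer 0 being that without mutant 1.

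Tekt1, found in motile cilia as well as in the testis, had an FPKM of 117 in mutant 1, 145 in mutant 2, 242 in control 1 and 205 in control 2. Both mutants were below both controls, at 58.5% of the control mean. The log2 fold change of -0.77 (SE 0.19, unadjusted p = 0.0040) did not pass after adjustment (adjusted p = 0.107 in limma; 0.0218 to 0.975 over the alternatives with all 4 samples and no block). It passed with robust eBayes, at 0.0218, and without mutant 2, at 0.0191.

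Tekt2, whose loss in mice bends the flagellum and makes males sterile, had an FPKM of 208 and 237 in the mutants and of 214 and 174 in the controls. The groups overlapped, and their log2 fold change was 0.20 (SE 0.19, adjusted p = 0.9999 in limma). A long non-coding RNA on the opposite strand, Gm12945, overlaps 1639 bases of the Tekt2 gene in NCBIM37, and its reads cannot be told apart from those of Tekt2 because no use of strand is stated.

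Tekt3, which is known to be needed for full progressive motility of sperm, had an FPKM of 161 and 164 in mutant 1 and 2, and of 135 and 107 in control 1 and 2. Both mutants were above both controls, with a mutant mean at 134% of the control mean. The log2 fold change of 0.43 (SE 0.18, unadjusted p = 0.046) did not pass (adjusted p = 0.544 in limma).

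Tekt5, expressed mainly in male germ cells, had an FPKM of 23.3 in mutant 1 and 68.8 in mutant 2, with 53.8 in control 1 and 41.6 in control 2. The mutants lay on either side of both controls. Its log2 fold change was -0.23 (SE 0.42, adjusted p = 0.9999 in limma). Mutant 2 exceeded mutant 1 by 1.52 in log2(FPKM + 1). The median gap was 1.5 over the 12 elongating spermatid markers and 0.99 over the 13 round spermatid markers, and the part of spermatids in the Tekt5 values was not tested. Without mutant 1 the log2 fold change of Tekt5 was 0.53 (adjusted p = 0.272 in limma), and without mutant 2 it was -0.99 (adjusted p = 0.000278).

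**Figure D2:**
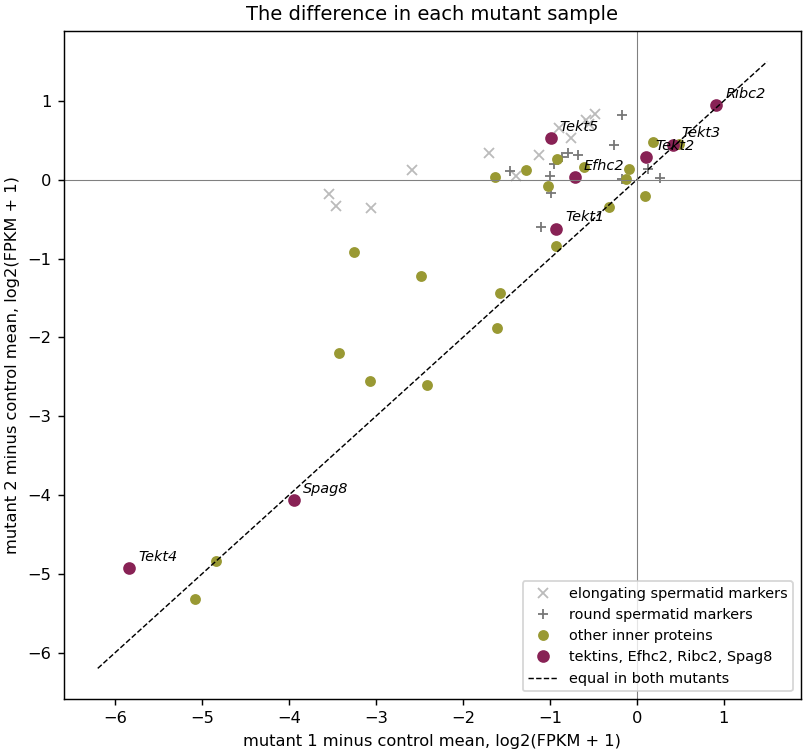
Difference of mutant 1 (horizontal axis) and of mutant 2 (vertical axis) from the control mean, in log2(FPKM + 1), for the 8 genes, 21 of the other inner protein genes and spermatid markers. Points on the dashed line differ equally in both mutants: Ribc2 and Spag8 lie close to it, while Tekt5 lies at -0.99 in mutant 1 and 0.53 in mutant 2, among the elongating spermatid markers.

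The summed FPKM of the 5 tektins was 511 and 619 in the mutants and 846 and 687 in the controls. Both mutants were below both controls, and the mean was 73.7% of the control mean. The two-sided exact permutation test gave p = 0.333, the smallest that 2 samples against 2 allow. Without Tekt4 the sums were 509 and 614 in the mutants and 644 and 529 in the controls, which overlapped (95.8% of the control mean, exact permutation p = 0.667).

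The makeup of the sum differed. Tekt4 supplied 23.8% and 23.1% of tektin FPKM in control 1 and 2, and 0.420% and 0.792% in mutant 1 and 2. Tekt2 took 25.3% and 25.4% in the controls and 40.7% and 38.3% in the mutants. Tekt3 went from 15.9% and 15.6% in the controls to 31.4% and 26.5% in the mutants, and Tekt1 from 28.6% and 29.9% to 22.9% and 23.4%. The groups did not overlap in any of these 4 shares, which are tied to each other because they add up to the whole. The share of Tekt5 was 6.36% and 6.05% in the controls and 4.57% and 11.1% in the mutants, on either side of them.

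**Figure D3:**
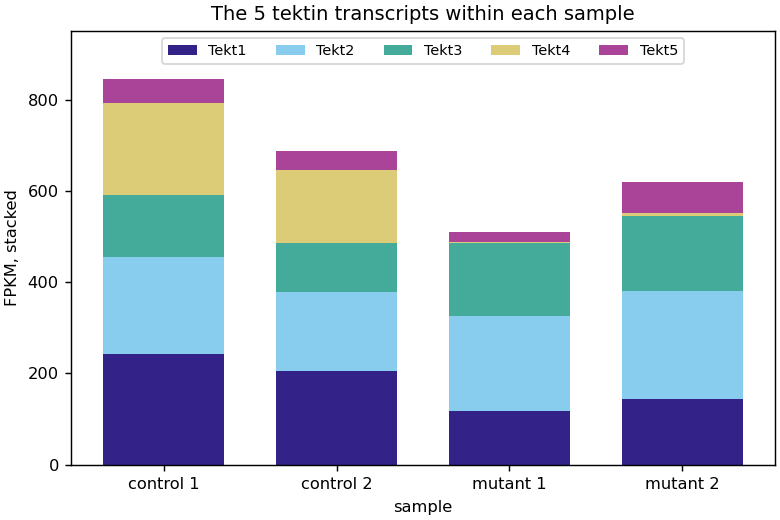
Stacked FPKM of Tekt1 to Tekt5 (vertical axis) in each of the 4 samples, with 1 color per gene. Tekt4 is a broad band in both controls, at 201 and 158 FPKM, and a thin line in both mutants, at 2.14 and 4.91.

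Of the other 3 genes, Spag8 had the largest difference. Its product, sperm associated antigen 8, lies within the doublet microtubules and has also been described as a partner of a transcriptional coactivator in spermatids. Control 1 and control 2 had an FPKM of 43.5 and 34.6, mutant 1 an FPKM of 1.59 and mutant 2 of 1.38. Both mutants were far below both controls, at 3.79% of the control mean (26.4-fold lower). On the log2 scale the change was -4.00 (SE 0.21, adjusted p = 4.40e-05 in limma), and -4.72 as the plain ratio of mean FPKM. Its mutant values rested on about 50 and 37 fragments, against 1307 and 1100 in the controls.

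Ribc2, a protein of the partition between the tubules of the doublet, differed in the other direction. Its FPKM was 66.2 in mutant 1 and 67.8 in mutant 2, with 37.3 in control 1 and 32.2 in control 2. Both mutants were above both controls, and they were close to each other. The mutants differed widely in spermatid markers, and the part of spermatids in the Ribc2 values was not tested. The log2 fold change of Ribc2 was 0.93 (SE 0.16, adjusted p = 0.0222 in limma; 0.00208 to 0.975 over the alternatives with all 4 samples and no block). The difference lost its call without the filter on low values (0.0701), with median-ratio scaling (0.117), with centring on round spermatid markers (0.975) and without a trend (0.0514). With centring its log2 fold change was larger, at 1.165. Centring shifted every gene by 0.502 in mutant 1 and by -0.268 in mutant 2, so the mutants no longer lay close in Ribc2. The call was also lost without control 1 or control 2, at log2 fold changes of 1.03 and 0.83.

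Efhc2, a protein with repeated DM10 domains, had the lowest control level of the 8. Its FPKM was 4.502 in mutant 1, 8.20 in mutant 2, 8.11 in control 1 and 7.90 in control 2. Mutant 1 was below the other 3 samples, which differed little. The log2 fold change of -0.34 (SE 0.27) did not pass (adjusted p = 0.9999 in limma), and it was 0.03 without mutant 1. Its gap between mutant 2 and mutant 1 was 0.74 in log2(FPKM + 1), in the direction of the spermatid markers, and their part in it was not tested.

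The order of the levels, per transcript length, was Tekt1, Tekt2, Tekt4, Tekt3, Tekt5, Spag8, Ribc2 and Efhc2 in the controls. The ranges over the control samples overlapped for Tekt1 and Tekt2, Tekt2 and Tekt4, Tekt5 and Spag8, and Spag8 and Ribc2. Within each control sample, however, the genes stood in this same order, so the overlap of ranges does not show equal levels. In the mutants the order was Tekt2, Tekt3, Tekt1, Ribc2, Tekt5, Efhc2, Tekt4 and Spag8. There the ranges of Ribc2 and Tekt5 overlapped, and those of Efhc2 and Tekt4. Tekt5 was above Ribc2 in mutant 2, whereas Efhc2 was above Tekt4 in both mutants. By mean level, Ribc2 thus ranked 7 in the controls and 4 in the mutants, and Tekt4 3 and 7.

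The 8 genes lie on 5 autosomes and the X chromosome. In NCBIM37, Tekt1 (chr11:72158224-72175944) and Tekt3 (chr11:62875156-62908466) share chromosome 11, and Tekt2 (chr4:125999365-126002932) and Spag8 (chr4:43664207-43666466) share chromosome 4. Tekt4 is at chr17:25608535-25613539, Tekt5 at chr16:10358041-10395583, Ribc2 at chr15:84962529-84974999 and Efhc2 at chrX:16709175-16896494, where the pseudogene Gm14514 overlaps it on the opposite strand. No stretch of 50 bases in the coding transcripts of the 8 was shared with those of another gene. Between the tektins, the translated coding sequences of the annotation were identical in 30.0% to 49.3% of aligned residues, with Tekt3 and Tekt5 the most alike and Tekt2 and Tekt5 the least. The closest pair in sequence, Tekt3 and Tekt5, had log2 fold changes of 0.43 and -0.23.

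A wider list of 28 other proteins known from inside the doublet microtubules, drawn up from general knowledge, was looked for under current and older symbols, and 23 were found. All 23 were tested. Of these, 9 passed at a lower level and 0 at a higher level in limma, beside the 2.52% and 0.308% of all genes tested. At an unadjusted p under 0.05, 11 were lower and 1 higher, beside 6.68% and 2.01%. Both mutants were below both controls in 13 of the 23, against 15.2% of all genes tested, and above both in 1, against 16.3%. With centring on round spermatid markers, 6 of the 23 were called lower. The median log2 fold change was -0.80.

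Of the genes named here from this list, Ccdc11 and 1700026D08Rik had the largest falls. Ccdc11 (Cfap53), a protein needed for left-right patterning and motile cilia, had an FPKM of 0.753 and 0.488 in the mutants and 65.7 and 51.9 in the controls (log2 fold change -5.20, SE 0.22, adjusted p = 2.61e-05 in limma). 1700026D08Rik (Cfap161) had 1.49 in each mutant, and 75.9 and 65.2 in the controls, a log2 fold change of -4.84. Both mutants were at or below 1.49 FPKM in these genes, and the groups did not overlap in either.

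Cfap45 and Cfap52, proteins of the B-tubule, both fell. Ccdc19 (Cfap45) had an FPKM of 27.0 and 23.5 in the mutants and 160 and 137 in the controls (log2 fold change -2.51). Wdr16 (Cfap52) had 22.9 and 18.8 in the mutants and 77.4 and 67.2 in the controls (log2 fold change -1.75). Enkur, a calmodulin-binding adaptor, had 26.6 and 29.5 in the mutants and 89.3 and 73.9 in the controls (log2 fold change -1.50). In each of these 3 genes the groups did not overlap and mutant 1 was close to mutant 2. With centring on round spermatid markers, Wdr16 and Enkur lost their call (adjusted p = 0.357 and 0.937 in limma), at log2 fold changes of -1.51 and -1.27. Both passed in the other 10 of 11 alternatives with 4 samples.

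In 3 more that fell, mutant 1 was lower than mutant 2. Ccdc105 (Tektl1), a tektin-like protein, had an FPKM of 6.61 in mutant 1 and 9.82 in mutant 2, against 70.2 and 55.8 in the controls (log2 fold change -2.81). 4930579J09Rik (Saxo4) had 9.69 and 23.9 in the mutants and 126 and 102 in the controls (log2 fold change -2.81). The study also picked this gene, as Ppp1r32, for real-time PCR and ChIP-PCR after its own analysis of these samples. 1700009P17Rik (Cfap126), also known as Flattop, had 16.0 and 39.7 in the mutants and 106 and 83.6 in the controls (log2 fold change -1.85, adjusted p = 0.0394 in limma). The call of 1700009P17Rik was kept in 3 of 11 alternatives with 4 samples and in 2 of 4 fits that left out 1 sample, and that of 4930579J09Rik in 8 and 3.

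Abundant genes of the list that did not pass had other patterns. Mns1, a coiled-coil protein of sperm flagella, had an FPKM of 313 and 308 in the mutants and 246 and 203 in the controls, with the mutants above (log2 fold change 0.47, adjusted p = 0.497 in limma). 1700026L06Rik (Spaca9), known from the lumen of microtubules in cilia and sperm, had 51.0 in mutant 1 and 165 in mutant 2, with 184 and 140 in the controls. Here mutant 1 was alone at the bottom, as in Tekt5, and the part of the spermatid markers in it was not tested.

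**Figure D4:**
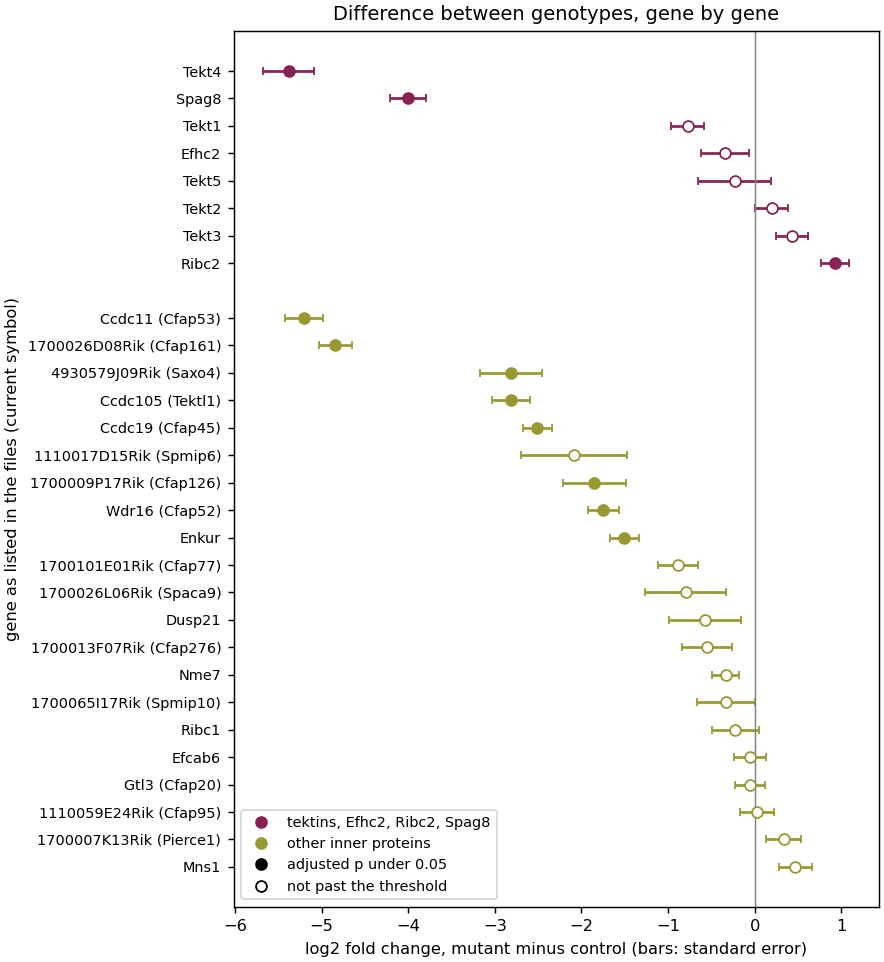
Log2 fold change (mutant minus control, horizontal axis) of the 8 genes and of 21 of the other inner protein genes, with standard errors as bars and filled points for an adjusted p under 0.05. In the first group Tekt4 and Spag8 are filled at -5.38 and -4.00 and Ribc2 at 0.93, and in the second 8 genes are filled, all below 0.

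X-boxes without a mismatch were found in the promoters of Ribc1, Ccdc19, Nme7 and 1110017D15Rik (at its second start) of this list. The mirrored repeat was found in 4930579J09Rik and 1110017D15Rik. The table held no promoter for 6 genes of the list. Ccdc19 and 4930579J09Rik were among the 9 that fell. Ribc1, Nme7 and 1110017D15Rik, named for their promoters after their values were seen, had log2 fold changes of -0.22, -0.33 and -2.08 that did not pass (adjusted p of 0.9999, 0.657 and 0.201 in limma).

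The genes nearest to each of the 8 in level and response were taken as those with the smallest root mean square difference in log2(FPKM + 1) over the 4 samples. Tekt4 had no close neighbour, the nearest being 1700021F07Rik at 0.50 with 0.903 and 3.70 FPKM in the mutants and 157 and 113 in the controls, then 4930526D03Rik at 0.69. Spag8 was nearest to Zswim2 (0.19) and Ccdc24 (0.22), and Ribc2 to Ccdc151 (0.20) and Agbl4 (0.21). Tekt1 was nearest to Lrrc27 (0.11) and Morn2 (0.13), and Tekt2 to Uqcr10 (0.055) and Egln2 (0.082). For Tekt3 they were Atp5d (0.057) and Psmc3ip (0.11), for Tekt5 Fam187b (0.081) and Dnajb7 (0.11), and for Efhc2 Ttc7 (0.049) and Amotl1 (0.097). Because neighbours were chosen by their values in these same samples, a likeness to the member follows from the choice and is not separate evidence. Those of Tekt5 had 23.4 FPKM for Fam187b and 23.7 for Dnajb7 in mutant 1, against 61.9 and 67.4 in mutant 2.

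**Figure D5:**
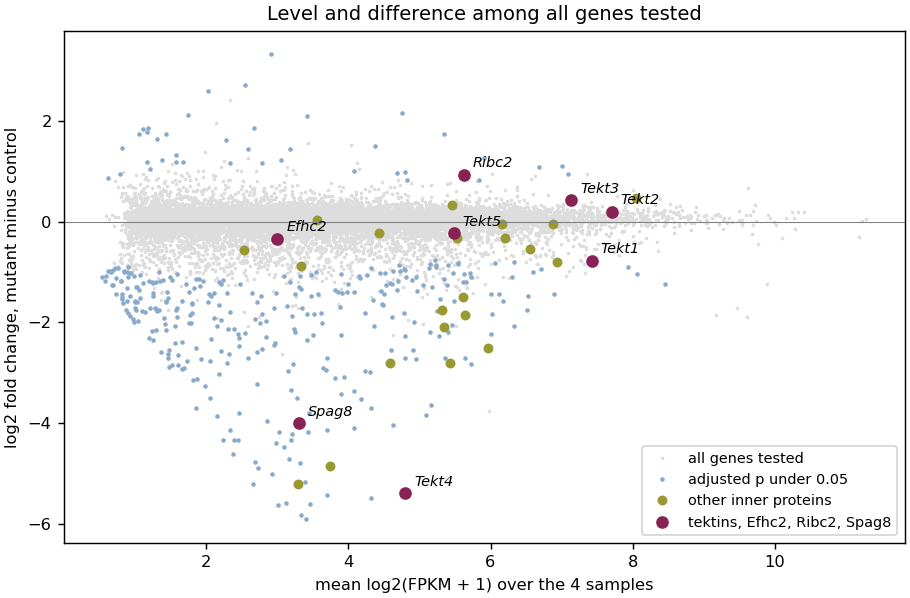
Mean log2(FPKM + 1) over the 4 samples (horizontal axis) against log2 fold change, mutant minus control (vertical axis), for 12985 genes in grey, those with an adjusted p under 0.05 in blue and both inner protein lists in color. Tekt4 at -5.38 and Spag8 at -4.00 lie among the blue points far below 0, Ribc2 at 0.93 lies near the top of the grey cloud, and Tekt2 and Tekt3 among the most abundant genes slightly above 0.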

How the data were processed

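Testis RNA of 4 mouse samples was sequenced. The submitters' processing notes name TopHat2 2.0.6, Cuffdiff and mm9, and the authors deposited 1 FPKM table per sample, normalized by gene length and depth, with confidence bounds. Per the study's methods, Cufflinks assembled the transcripts with the UCSC gene annotation of mm9 as guide. The use of strand is not given in the sources used here. The study pooled replicates for Cuffdiff, which was not repeated here.

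Entries that share a symbol were summed. Tests covered genes that reached an FPKM of 1 in 2 or more samples and used log2(FPKM + 1) with limma 3.58.1 in R 4.3.3 (two-sided, genotype only, eBayes with a mean-variance trend, Benjamini-Hochberg adjustment, threshold 0.05), and the fit was tested on simulated data. Fragments were estimated from the confidence bounds, which cover counting error only, and p-values measure the spread between these samples. Named were the 8 genes, Rfx2, each gene of the wider list that passed, its 3 most abundant genes that did not, and the 2 nearest genes to each member outside both lists. Of these, 2 genes of the wider list are counted but not reported here. Members and lists were chosen with earlier results of these data known. Promoters came from RefSeq (GRCm38.p6), where all 8 genes matched. Tables were made with python 3.11.15, pandas 2.3.3 and scipy 1.17.1. The alternatives were a pseudocount of 0.1, no filter, a filter at FPKM 5, median-ratio scaling, quantile normalization, centring on round spermatid markers, no trend, robust eBayes, a replicate block, the highest entry in place of the sum, plain ratios, leaving out each sample and, added after seeing the data, a crossed replicate block.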

Additional observations from a re-analysis of the deposited data

How the results depend on the processing

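Tekt4 and Spag8 passed the test at a lower level in 11 of 11 alternatives with 4 samples and in 4 of 4 fits that left out 1 sample, with adjusted p-values up to 0.00975 and 0.00558 in limma. The number of the 8 genes called higher, 1 in the fit reported, was 0 without the filter, with median-ratio scaling, with centring on round spermatid markers, without a trend and with the crossed replicate block, and ranged from 0 to 1 when 1 sample was left out, with 0 without control 1 or control 2. The number called lower ranged from 2 to 4 on leaving out 1 sample, with 4 without mutant 2, and that of the other 23 genes from 7 to 15, with 15 without mutant 2. The median log2 fold change of the 8 ranged from -0.82 without mutant 2 to 0.16 without mutant 1, so its sign rested on mutant 1. Leaving out 1 sample, Tekt5 ranged from -0.99 without mutant 2 to 0.53 without mutant 1, and Efhc2 from -0.71 to 0.031. With centring, Tekt5 was at 0.0034 and the median of all genes moved by 0.23, from 0.03 to 0.27. Rfx2 lost its call without the filter (-1.43, adjusted p = 0.0607), with median-ratio scaling (-1.46, 0.0669), with centring (-1.20, 0.975) and without control 1 (-1.20, 0.0628), and ranged from -1.66 to -1.20 over the fits that left out 1 sample. The causes were not tested. Fits that left out 1 sample assume that the lone sample of a group varies like the other group.

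Same-numbered samples do not pair by the labels or by the data, where their deviations had a correlation of -0.15 over 12985 genes. The replicate block called 525 genes lower and 70 higher, against 327 and 40 without it, and 3 of the 8 lower and 1 higher, Tekt1 being added with an adjusted p of 0.0409 in limma. It called 11 of the other 23 lower. The crossed replicate block called 266 and 28 of all genes, 2 and 0 of the 8 and 9 of the other 23 lower. Both block fits rest on 1 residual degree of freedom. Over all genes tested, 199 were called lower and 17 higher without the filter (19502 genes), 202 and 17 with the filter at FPKM 5 (8886 genes), 99 and 8 with centring, 17 higher with median-ratio scaling and 67 higher with robust eBayes. Leaving out 1 sample gave 167 to 948 lower and 13 to 162 higher. Depth limits the precision of Spag8 in the mutants, at 50 and 37 fragments.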

Other observations

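Among the other 23 inner protein genes, the gap between mutant 2 and mutant 1 was widest in 1110017D15Rik (Spmip6), named after its values were seen. Its FPKM was 7.85 in mutant 1, 43.3 in mutant 2, 93.1 in control 1 and 74.0 in control 2. The gap was 2.33 in log2(FPKM + 1), against -0.12 for the median of all genes tested, and the log2 fold change was -0.92 without mutant 1 and -3.25 without mutant 2. Both mutants were below both controls under either choice, and the part of the spermatid markers in this gap was not tested.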
